A study of Drosophila melanogaster with 12 samples.

Results

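Described here are 10 genes of the septate junctions and of the cell polarity machinery of Drosophila melanogaster: Ssk, mesh, Tsp2A, cora, Nrx-IV, dlg1, l(2)gl, scrib, Fas3 and pyd. They were taken by name, as exact matches to the symbol column of the deposited count table. No measured value is part of that rule, but the genes were chosen with earlier results of these data known. All 10 of 10 were found among the 8802 genes of the table, and 10 of 10 passed the filter on low counts, among 8296 genes tested.

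RNA was measured in cells that the labels call early enterocytes, sorted by their GFP. The source was the gut region R3 to R5 (posterior midgut) of virgin females aged 9 days. There were 12 libraries, 3 for each of 4 genotypes, and each library came from a pool of animals. All 4 genotypes carried myoIA-Gal4, a driver active in enterocytes, with UAS-GFP and tubGal80TS, a temperature-sensitive Gal4 inhibitor, and were held at 29 °C for 6 days to switch the driver on. To this the first group added UAS-SvbRNAi, a hairpin against the transcription factor Shavenbaby (Svb, an ovo product). The second added UAS-SvbACT::GFP, the form of Svb known as the activator, and the third added the transgene called SvbREP, UAS-Svb3Kmut::GFP, a form known to resist processing into the activator and to act as a repressor. The control progeny of Canton-S carried the driver, UAS-GFP and tubGal80TS with no further transgene, so parental stock and transgene cannot be told apart in any comparison with control. Replicate numbers are those of the sample descriptions, which for the svb RNAi libraries differ from the numbers in their titles.

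The labels were checked first. Raw ovo counts (FBgn0003028) were 78, 65 and 21 in the libraries labelled svb RNAi, 1604, 1612 and 493 in SvbACT, 4019, 1223 and 570 in SvbREP, and 63, 11 and 5 in control. Both transgene groups lay above all control libraries, while the libraries labelled svb RNAi overlapped control (log2 fold change 0.83, SE 0.69, edgeR adjusted p = 0.468), so ovo mRNA was not lower there. It was higher in svb RNAi in 3 of 3 same-numbered pairs, and without the 4 libraries numbered 1, a choice made after the data were seen, ovo was called higher (1.95, adjusted p = 0.0227). These libraries are therefore named by their label throughout. Library totals ran from 3209182 to 8881488 counts, and the 10 genes held 0.312% to 0.442% of them. Transcripts of esg, a marker of gut stem cells and enteroblasts, stood at 650 to 1815 CPM in the 12 libraries, beside 377 to 660 CPM for Myo31DF, the gene from which the driver is taken. CPM stands here for counts scaled to 1000000 per library, after the total was adjusted by TMM, a scaling that discounts genes with extreme levels or ratios.

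Septate junctions seal the space between the cells of an insect epithelium, basal to the adherens junctions or, in the adult midgut, close to the cell apex. A pleated form occurs in ectodermal epithelia and a smooth form in the endodermal midgut. In the Drosophila midgut the smooth form needs the membrane proteins Ssk, Mesh, Tsp2A and Hoka, and its loss from enterocytes is known to open the gut barrier and to drive the stem cells to divide. The Scribble, Discs large and Lethal giant larvae proteins set up the basolateral side of most other epithelia of the fly.

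Against control, 3 of the 10 genes fell in the libraries labelled svb RNAi and none rose: pyd, Nrx-IV and dlg1, by 0.97, 0.83 and 0.49 on the log2 scale. None of the smooth septate junction transcripts was called, and no gene of the 10 was called in SvbACT or in SvbREP. In the same comparison 11.1% of all genes tested were called in either direction and 6.23% were called lower, so 3 of 10 stood above that share in this fit. The count changed with the setting. It was 2 of 10 against 13.9% of all genes without TMM and 3 of 10 against 19.6% with the replicate number as a block. Without the libraries numbered 1 it was 1 of 10 against 6.92%. The dlg1 call held in 5 of 12 fits with a single library left out. In bulk samples, fewer cells of a type and less RNA per cell cannot be told apart.

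**Figure D1:**
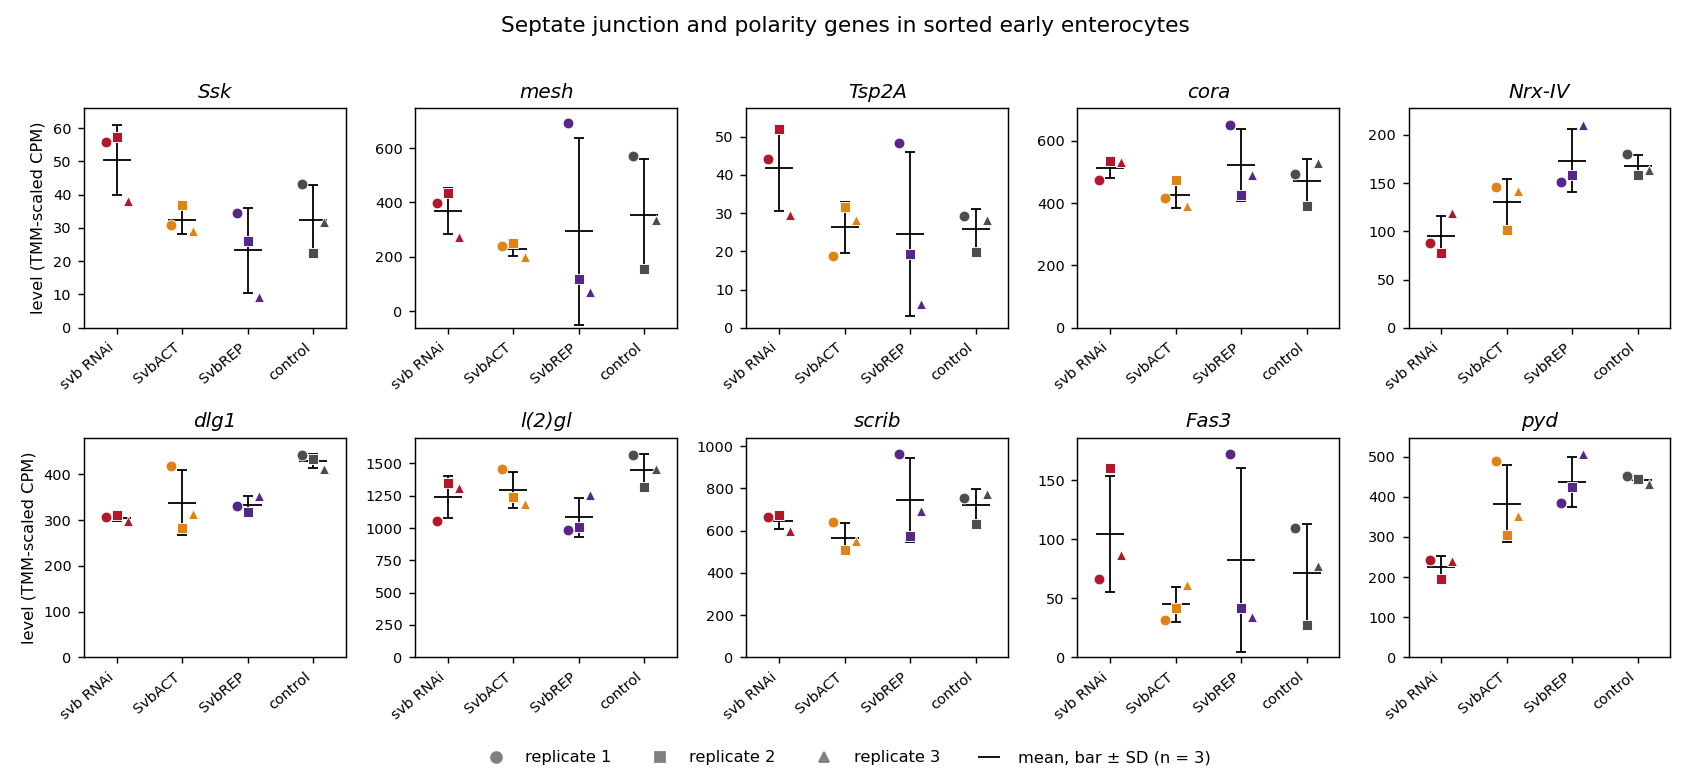
Level of each of the 10 genes in every library, in CPM of the TMM-adjusted library total (linear axes). Symbols give the replicate number and the horizontal mark with its bar gives the mean ± SD over 3 libraries. The svb RNAi points of pyd, Nrx-IV and dlg1 lie below all control points, while mesh, Tsp2A and Fas3 spread widely within SvbREP.

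The 3 components of the smooth septate junction are described first. Ssk (Snakeskin, FBgn0036945) is a small membrane protein of that junction, encoded at 3L:20188522-20189779 on the plus strand. Coordinates here and below follow the reference annotation of the dm6 assembly, and every gene of the 10 is protein-coding there. Ssk stood at 55.9, 57.2 and 38.2 CPM in svb RNAi libraries, 30.8, 36.9 and 29.1 in those of SvbACT, 34.4, 26.0 and 9.35 in those of SvbREP, against 43.3, 22.4 and 31.7 CPM for control. The highest 2 of the 12 libraries were svb RNAi libraries, the third svb RNAi library overlapped control, and SvbREP replicate 3 was the lowest. The log2 fold change of svb RNAi over control was 0.64 (95% interval -0.14 to 1.42, edgeR adjusted p = 0.27), which did not pass the test although svb RNAi was higher in 3 of 3 same-numbered pairs.

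The gene mesh (FBgn0051004, 3R:31178389-31195762, minus strand) encodes a large transmembrane protein that Ssk and Tsp2A need for their place at the junction. It stood at 396, 434 and 275 CPM in svb RNAi, 240, 252 and 198 in SvbACT, 692, 119 and 71.0 in SvbREP, against 570, 157 and 337 CPM for control. SvbREP held both the highest and the lowest library of the 12, a range of 9.73 times, so its mean of 294 ± 345 CPM (SD, n = 3) describes none of its libraries. The log2 fold change over control was 0.06 (95% interval -1.33 to 1.45, edgeR adjusted p = 0.968) in svb RNAi, an interval that covers large changes in both directions. Same-numbered pairs differed by -0.52, 1.47 and -0.29, so mesh was lower in svb RNAi in 2 of 3.

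Tsp2A (FBgn0024361, X:1346553-1348143, plus strand) encodes the tetraspanin of the same junction. Its levels were 44.1, 51.9 and 29.6 CPM in svb RNAi, 18.7, 31.7 and 28.3 in SvbACT, 48.3, 19.2 and 6.23 in SvbREP, against 29.2, 19.9 and 28.3 CPM for control. The 3 svb RNAi libraries lay above the 3 control libraries, the third by little, and SvbREP replicate 3, with 20 raw counts, was the lowest value of any of the 10 genes. For svb RNAi over control the log2 fold change was 0.71 (95% interval -0.36 to 1.77, edgeR adjusted p = 0.378). Among all genes tested, 18.1% had 3 svb RNAi libraries above the 3 control libraries, and Tsp2A was the only one of the 10 to do so.

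The known partner hoka (FBgn0035583, listed in the deposited table under CG13704) is not one of the 10 but belongs to the same complex. It averaged 78.1 ± 26.5 CPM in svb RNAi, 36.0 ± 7.33 in SvbACT, 39.1 ± 28.6 in SvbREP, against 33.6 ± 9.90 CPM for control (SD, n = 3 each). The log2 fold change of svb RNAi over control was 1.22 (SE 0.43, edgeR adjusted p = 0.086). That p was 0.0496 with the replicate number as a block, 0.037 in a fit of the 2 groups alone, 0.0413 without the libraries numbered 1 and 0.0308 with DESeq2, so hoka was called higher in those 4 settings. The 4 smooth junction genes thus all had positive log2 fold changes in svb RNAi, with a median of 0.67 against 0.01 for all genes tested. Of the 4, 0 were called in the fit with genotype alone, and mesh barely differed and was lower in 2 of 3 same-numbered pairs. The 4 genes varied together among libraries, as given below, so their signs are not independent.

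Next come the septate junction proteins shared with the pleated form. Nrx-IV (Neurexin IV, FBgn0013997, 3L:12146519-12156990, plus strand) encodes a transmembrane protein of the Caspr family that holds the pleated junction together with Contactin and Neuroglian. It stood at 87.8, 77.7 and 119 CPM in svb RNAi libraries, 146, 102 and 142 in those of SvbACT, 151, 158 and 211 in those of SvbREP, against 180, 158 and 164 CPM for control. All svb RNAi libraries lay below all control and all SvbREP libraries. Nrx-IV fell by 0.83 on the log2 scale in svb RNAi against control (SE 0.20, edgeR adjusted p = 0.0189), to 0.564 times control with an interval from 0.421 to 0.757. Same-numbered pairs differed by -1.04, -1.02 and -0.46. The Nrx-IV call was lost without control replicate 1 (-0.77, adjusted p = 0.0715), svb RNAi replicate 1 (-0.77, adjusted p = 0.0628) or svb RNAi replicate 2 (-0.70, adjusted p = 0.0659). The change of -0.37 in SvbACT did not pass the test (95% interval -0.79 to 0.05, edgeR adjusted p = 0.436), and in SvbREP the log2 fold change was 0.05 (95% interval -0.37 to 0.47).

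The gene cora (Coracle, FBgn0010434, 2R:19229063-19243751, plus strand) encodes a FERM-domain protein that binds the Nrx-IV tail. Its levels were 475, 533 and 531 CPM in svb RNAi, 417, 475 and 389 in SvbACT, 652, 426 and 489 in SvbREP, against 493, 389 and 528 CPM for control. All 3 other groups overlapped with control, and the log2 fold change of svb RNAi over control was 0.13 (95% interval -0.24 to 0.49, edgeR adjusted p = 0.67).

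Of the 3 basolateral polarity genes, dlg1 alone fell. It encodes Discs large, a membrane-associated scaffold of the guanylate kinase family (FBgn0001624, X:11369665-11409776, plus strand). It stood at 306, 311 and 298 CPM in svb RNAi, 418, 283 and 312 in SvbACT, 331, 317 and 353 in SvbREP, against 442, 433 and 413 CPM for control. The svb RNAi libraries lay below every control library, and the spread within svb RNAi was a coefficient of variation of 2.17%. The fall in svb RNAi was 0.49 on the log2 scale (SE 0.14, edgeR adjusted p = 0.0403), to 0.710 times control, with pairs at -0.53, -0.48 and -0.47. Its call did not survive plain library totals (log2 fold change -0.34, adjusted p = 0.0817) or the loss of any single svb RNAi or control library (adjusted p 0.0766 to 0.13), and without SvbACT replicate 3 the adjusted p was 0.0525. In SvbACT the log2 fold change was -0.35 (95% interval -0.65 to -0.04, edgeR adjusted p = 0.302) and in SvbREP -0.36 (95% interval -0.67 to -0.06, edgeR adjusted p = 0.29), neither called. Without SvbACT replicate 1, where dlg1 was 418 CPM, the SvbACT value was -0.55 with an adjusted p of 0.0482.

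The gene l(2)gl (Lethal giant larvae, FBgn0002121, 2L:9839-21376, minus strand) encodes a WD40-repeat tumour suppressor that keeps apical kinases off the basolateral membrane. It had 1055, 1352 and 1311 CPM in svb RNAi, 1455, 1242 and 1189 in SvbACT, 987, 1007 and 1253 in SvbREP, against 1566, 1321 and 1458 CPM for control. The log2 fold change in SvbREP was -0.42 (95% interval -0.73 to -0.11, edgeR adjusted p = 0.227), and in svb RNAi it was -0.22 (95% interval -0.54 to 0.09, edgeR adjusted p = 0.337). The gene scrib (Scribble, FBgn0263289, 3R:26536350-26604051, plus strand), a scaffold with leucine-rich repeats and PDZ domains, averaged 646 ± 41.0 CPM in svb RNAi, 567 ± 67.7 in SvbACT, 743 ± 199 in SvbREP, against 720 ± 76.5 CPM for control (SD, n = 3 each). Its groups overlapped and its log2 fold change of svb RNAi over control was -0.15 (95% interval -0.53 to 0.22, edgeR adjusted p = 0.609).

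The last pair are an adhesion molecule and a scaffold. Among the 10 genes, pyd (Polychaetoid, FBgn0262614, 3R:8827068-8931896, minus strand), the fly homologue of the vertebrate junction scaffold ZO-1, had the largest fall. It stood at 242, 195 and 241 CPM in svb RNAi libraries, 490, 305 and 352 in those of SvbACT, 384, 423 and 506 in those of SvbREP, against 452, 445 and 431 CPM for control. The svb RNAi libraries were the 3 lowest of the 12 and overlapped no other group. It fell by 0.97 on the log2 scale against control (SE 0.18, edgeR adjusted p = 0.00489), to 0.510 times control with an interval from 0.392 to 0.664, with pairs at -0.90, -1.19 and -0.84. In SvbACT (-0.21, 95% interval -0.59 to 0.16) and SvbREP (-0.02, 95% interval -0.39 to 0.36) it was not called. Its exons share 212 bp, 1.34% of their length, with CG8379 on the other strand, a gene with 3878 counts in all against 24698 for pyd, and the strand setting of the counting is not given in the sources used here.

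Fas3 (Fasciclin 3, FBgn0000636, 2L:18320102-18393441, plus strand) encodes an immunoglobulin-domain adhesion protein found at the septate junction. It stood at 66.3, 160 and 87.2 CPM in svb RNAi, 32.0, 41.9 and 61.2 in SvbACT, 172, 41.5 and 34.0 in SvbREP, against 109, 27.3 and 77.2 CPM for control. It varied by 4.01 times within control and by 5.07 times within SvbREP, and none of its comparisons was called (svb RNAi over control 0.56, 95% interval -0.73 to 1.84, edgeR adjusted p = 0.583).

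**Figure D2:**
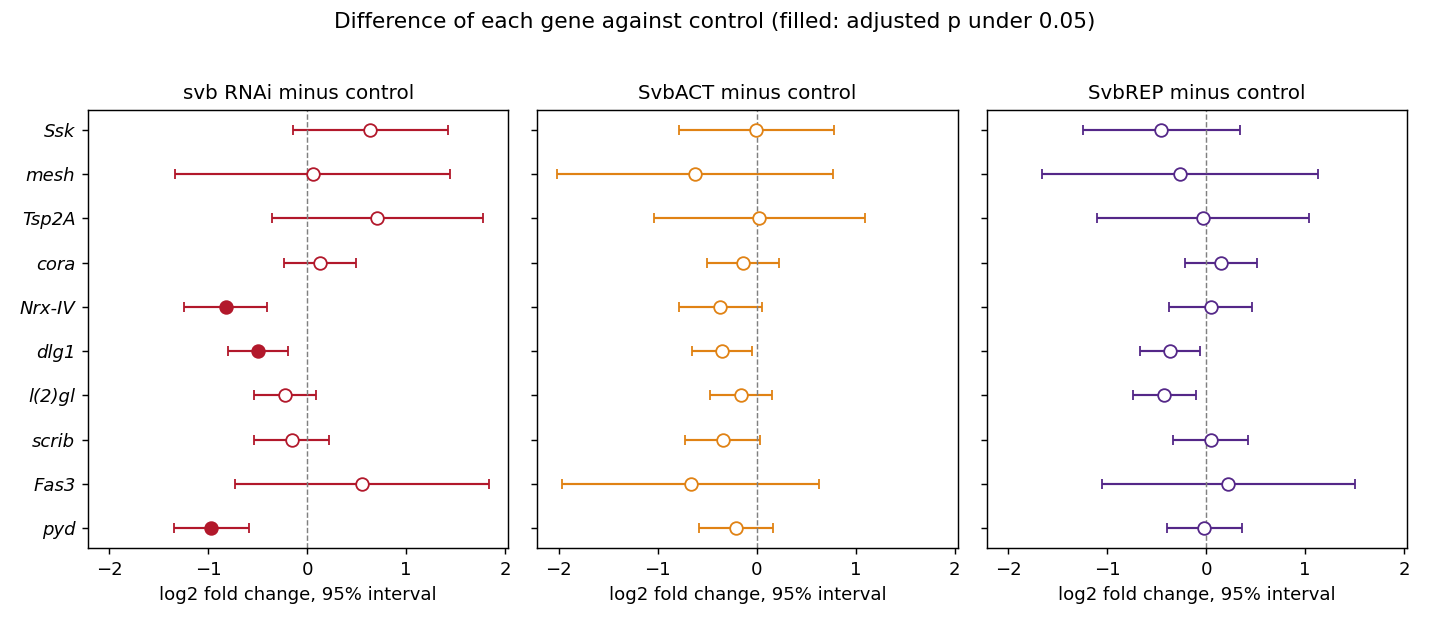
Log2 fold change over control with its 95% interval for the 10 genes, in svb RNAi, SvbACT and SvbREP. Filled points passed an adjusted p of 0.05 in edgeR and are pyd, Nrx-IV and dlg1 in svb RNAi only. The intervals of mesh, Tsp2A and Fas3 are the widest.

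Counted over the 10 genes, the log2 fold changes of svb RNAi over control split 5 negative and 5 positive, with a median of -0.05 against 0.01 for all genes tested. The 3 called genes were also the 3 whose svb RNAi libraries all lay below all control libraries, a pattern that 17.3% of all genes tested showed. Scaled to plain library totals, without TMM, 2 of 10 were called (pyd and Nrx-IV) against 13.9% of all genes. With that scaling the all-gene median was 0.16, the median of the 10 genes 0.11 and the share of calls that were higher 66.8%, against 44.0% with TMM, so members are to be read against that shift. With the replicate number as a block, 3 of 10 were called against 19.6% of all genes. Without the 4 libraries numbered 1, only pyd was called, 1 of 10 against 6.92% of all genes (Nrx-IV -0.72, adjusted p = 0.0937, and dlg1 -0.48, adjusted p = 0.0906). Leaving out svb RNAi replicate 1, svb RNAi replicate 2 or control replicate 1 also left pyd as the only call. In the authors' deposited table, 14% of genes were called in this comparison, and Nrx-IV and pyd were the members marked lower.

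In SvbACT over control, 0 of the 10 genes were called by edgeR, 1 had an unadjusted p under 0.05 and 0 were called by DESeq2, against 1.57% of all genes called. In SvbREP over control, 0 were called by edgeR, 2 had an unadjusted p under 0.05 and 0 were called by DESeq2, against 1.21% of all genes. At 9 of 10 the log2 fold changes of SvbACT were negative, with a median of -0.28 against 0.02 for all genes, while SvbREP had 6 negative and a median of -0.03 against 0.03. These comparisons share the control libraries with that of svb RNAi. None of the single differences passed the adjusted threshold. All SvbACT libraries lay below all control libraries for Nrx-IV, and all SvbREP libraries did for dlg1 and l(2)gl. The share of all genes with such a separation was counted only for svb RNAi against control, so these separations have no share beside them.

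The other 3 comparisons set the genotypes against one another, with the control libraries entering only through the shared scaling, filter and spread. Between svb RNAi and SvbACT, 1 of 10 genes was called, against 2.54% of all genes: pyd fell by 0.76 on the log2 scale (SE 0.17, edgeR adjusted p = 0.0387), a call lost under plain library totals (-0.59, adjusted p = 0.0786) and when any of 9 single libraries was left out, all but SvbACT replicate 2 and SvbREP replicates 1 and 3 (log2 fold change over all 12 such fits -0.90 to -0.53). Between svb RNAi and SvbREP, 2 of 10 were called, against 2.59% of all genes: pyd fell by 0.95 (SE 0.18, edgeR adjusted p = 0.0111) and Nrx-IV by 0.87 (SE 0.20, edgeR adjusted p = 0.0316). Nrx-IV was not called there under plain library totals (-0.72, adjusted p = 0.072), or without control replicate 2 or 3, svb RNAi replicate 1 or 2, or SvbREP replicate 3 (-0.87 to -0.71). Without SvbREP replicate 3 pyd was at -0.84 (adjusted p = 0.0522) and 0 of 10 were called. The 4 smooth junction genes had positive log2 fold changes in this pair of genotypes (median 0.86), with 0 called in the fit with genotype alone. Ssk had a log2 fold change of 1.09 (95% interval 0.30 to 1.88, edgeR adjusted p = 0.155), and with the replicate block it rose by 1.16 (adjusted p = 0.0403), which brought the block's count to 3 of 10 against 5.67% of all genes. For mesh the value was 0.32 (edgeR adjusted p = 0.853) in all libraries, 1.95 (adjusted p = 0.0322) without SvbREP replicate 1 and 1.89 (adjusted p = 0.016) without the libraries numbered 1. Both of those fits drop the SvbREP library with the most mesh. Over fits with a single library left out, mesh went as low as -0.14 and was called in 1 of 12. Tsp2A ranged there from 0.31 to 1.68 and was called in 0 of 12. In SvbACT against SvbREP, 0 of 10 were called by edgeR, 1 had an unadjusted p under 0.05 and 0 were called by DESeq2, against 0.0723% of all genes.

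Levels of different genes were set side by side per kilobase of annotated exon. The length merged the exons of all annotated transcripts (15772 bp over 12 transcripts for pyd, 898 bp over 2 for Ssk). It can exceed the length of any single transcript, so genes with many transcripts may rank too low. In svb RNAi, l(2)gl led with 207 ± 26.9 CPM per kb and pyd had the lowest mean, 14.3 ± 1.70 CPM per kb. The svb RNAi libraries of pyd (12.4 to 15.3) overlapped those of Fas3 (10.0 to 24.2), the next gene above it. In control, l(2)gl stood at 242 ± 20.5, cora at 77.8 ± 11.9, mesh at 68.5 ± 40.03, scrib at 41.8 ± 4.45, dlg1 at 37.3 ± 1.31, Ssk at 36.1 ± 11.7, Nrx-IV at 32.6 ± 2.26, pyd at 28.1 ± 0.676, Tsp2A at 24.9 ± 4.97 and Fas3 at 10.8 ± 6.26 CPM per kb (SD, n = 3). Transcripts of l(2)gl were highest and those of cora next in all 4 genotypes, without overlap between the libraries of the pair. From mesh down to Nrx-IV in control, each gene overlapped the one above it. Ssk and Tsp2A came straight after mesh in svb RNAi, where they overlapped their neighbours, and came last but for Fas3 in SvbREP.

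Some of the 10 genes varied together among libraries of the same genotype. After each gene was centred on its genotype mean, log2 CPM of Ssk and Tsp2A correlated at r = 0.91 over the 12 libraries, mesh and Tsp2A at 0.86, Ssk and mesh at 0.85, and hoka at 0.96 with Tsp2A. Fas3 went with them, at 0.86 with mesh and 0.87 with hoka. Two-way values for scrib and cora were 0.77 and 0.76 with mesh, but 0.39 and 0.44 with Ssk. In SvbREP the genes Ssk, mesh, Tsp2A, hoka and Fas3 were all highest in replicate 1 and lowest in replicate 3. In control all 5 were highest in replicate 1 and lowest in replicate 2. Of the genes that fell in svb RNAi, pyd correlated at 0.81 with dlg1 and at 0.76 with Nrx-IV, and dlg1 with Nrx-IV at 0.46. Between these genes and the smooth junction genes the values ran from -0.68 for pyd with Tsp2A, with -0.67 for Nrx-IV with Tsp2A, -0.67 for pyd with hoka and -0.61 for Nrx-IV with Ssk, to -0.03 for mesh with dlg1. These values describe 12 libraries of unequal depth whose same-numbered members deviate together, and they carry no test.

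**Figure D3:**
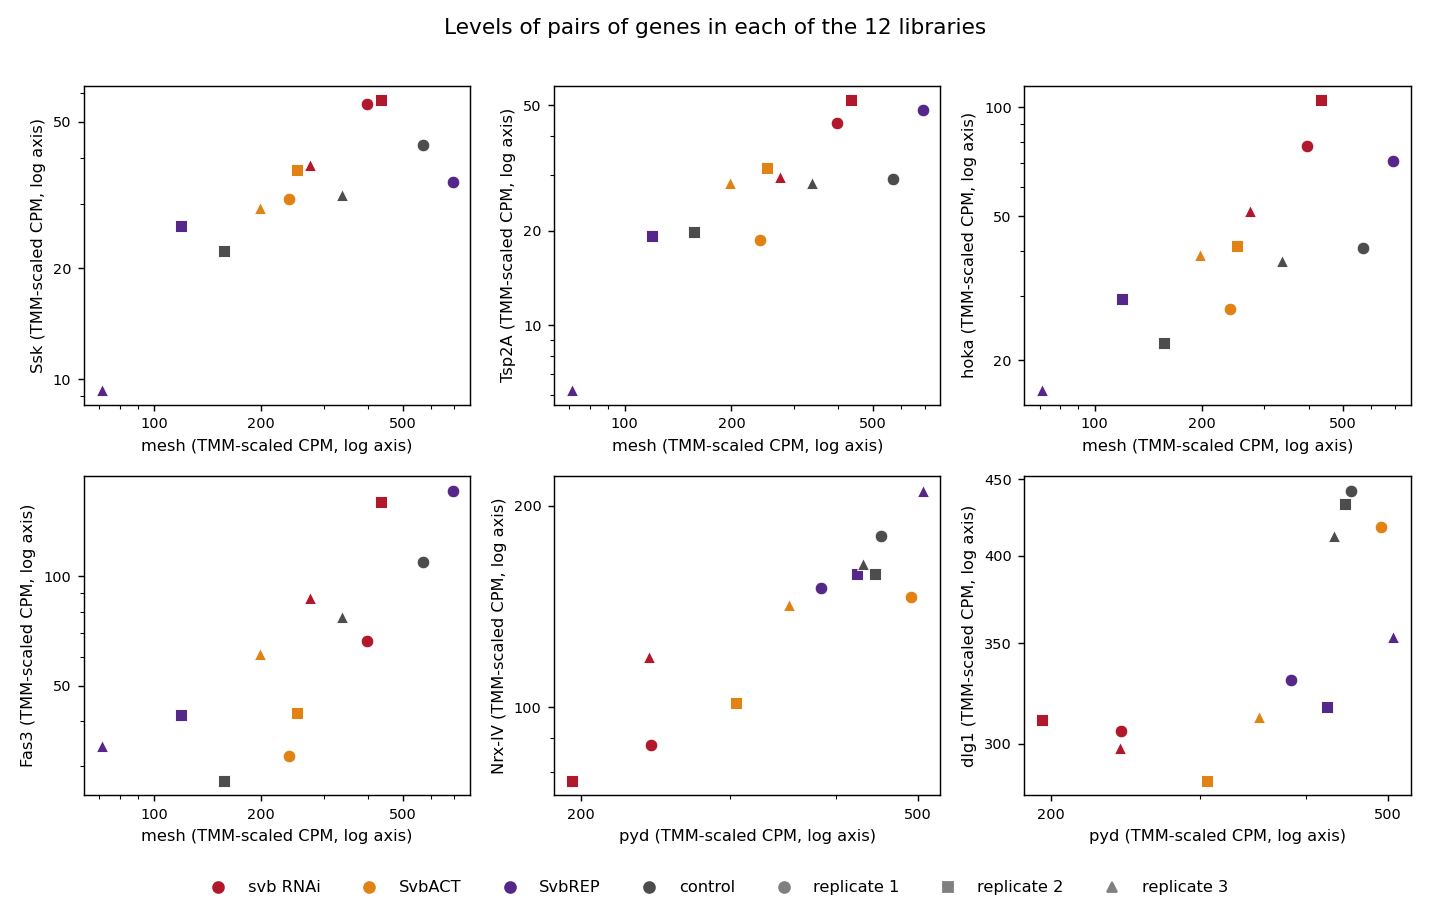
Each point is 1 of the 12 libraries, with the level of a gene on each axis in CPM of the TMM-adjusted library total (log axes), colour for the genotype and symbol for the replicate number. Ssk, Tsp2A, hoka and Fas3 follow mesh across libraries, with SvbREP replicate 1 at the high end and SvbREP replicate 3 at the low end of mesh. In the pyd panels the 3 svb RNAi libraries stand apart at the low end of pyd.

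Among all genes tested, those most like the smooth junction genes over the 12 libraries were taken by Pearson r of log2 CPM. For Ssk they were CG8414 (r = 0.94, Spearman rho 0.78) and Tsp2A (r = 0.92, rho 0.85). For Tsp2A they were CG5819 (r = 0.93, rho 0.92) and Ssk, so Ssk and Tsp2A each had the other among their closest 2 of 8296 genes. For mesh they were CG34112 (r = 0.93, rho 0.92) and AANAT1 (r = 0.92, rho 0.90), which encodes an arylalkylamine N-acetyltransferase. Each r rests on n = 12 libraries of 4 genotypes.

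Other genes of the pleated septate junction were tested as a list of 23, also chosen with earlier results of these data known. Of these, 8 fell and none rose in svb RNAi against control, where 6.23% of all genes tested were called lower. In this list 21 log2 fold changes were negative and the median was -0.71 against 0.01 for all genes. Under plain library totals 19 were negative and the median was -0.56 against 0.16 for all genes. The list's median was -0.43 with the replicate block, -0.44 without the libraries numbered 1 and -0.73 with DESeq2. The largest fall was that of vari (Varicose, a scaffold of the pleated junction), which averaged 5.10 ± 0.880 CPM in svb RNAi, 11.8 ± 2.26 in SvbACT, 25.0 ± 7.04 in SvbREP, against 26.2 ± 2.65 CPM for control (SD, n = 3 each). Its log2 fold change in svb RNAi was -2.38 (SE 0.28, edgeR adjusted p = 0.000424), and all svb RNAi libraries lay below all others. Mcr, a complement-related macroglobulin needed for the junction, fell to 61.5 ± 2.71 CPM in svb RNAi, against 140 ± 11.8 CPM in control (log2 fold change -1.19, SE 0.14, edgeR adjusted p = 0.000424). The lipid phosphatase gene wun fell to 88.6 ± 21.4 CPM, against 194 ± 29.3 CPM in control (-1.13, SE 0.18, edgeR adjusted p = 0.00289). The other 5 called, named after their values were seen, were sinu, nrv2, Cont, pasi2 and Tsf2, with log2 fold changes of -1.49, -1.05, -0.85, -1.57 and -0.89. The list had 8 genes called lower under plain library totals, where 383 of 8296 genes were called lower. With the replicate block it had 9, where 822 of 8296 were called lower. DESeq2 called 9 lower, where it called 713 of 8280 genes lower. Without the libraries numbered 1 the list had 6 called lower, where 372 of 8253 genes were.

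In SvbACT against control vari was the one gene of this list that edgeR called with genotype alone, against 1.57% of all genes, with a log2 fold change of -1.16 (SE 0.27, edgeR adjusted p = 0.0499), which it missed under plain library totals (adjusted p = 0.0509). DESeq2 called 3 of the 23 lower, where it called 184 of 8280 genes lower. The list's median there was -0.27, with 18 of 23 values negative. With the replicate block wun was called as well (-0.74, adjusted p = 0.0423). In SvbREP, 0 of the 23 were called by edgeR and 0 by DESeq2, and the median was -0.08. Against SvbACT, 3 of the 23 were called lower in svb RNAi (2.54% of all genes called), but 0 under plain library totals and 0 without the libraries numbered 1. Against SvbREP 5 were called lower (2.59% of all genes called), and 2 under plain library totals.

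The apical, adherens and integrin lists held 1 call each in svb RNAi against control, shares close to the 11.1% of all genes called in that comparison. Of 11 apical polarity genes, baz alone fell (-0.95, SE 0.17, edgeR adjusted p = 0.00495). It encodes Bazooka, the Par-3 scaffold, and stood at 474 ± 30.7 CPM in svb RNAi, against 916 ± 95.4 CPM in control. Of 10 adherens junction genes, Magi, a junction scaffold, fell to 141 ± 16.4 CPM, against 235 ± 18.1 CPM in control (-0.74, SE 0.14, edgeR adjusted p = 0.00559). Of 9 integrin and basal polarity genes, mew, the integrin alpha-PS1 subunit, fell to 1247 ± 169 CPM, against 1794 ± 94.4 CPM in control (-0.52, SE 0.15, edgeR adjusted p = 0.0398), a call lost under plain library totals (-0.37, adjusted p = 0.0958). Without the libraries numbered 1 neither Magi (-0.61, adjusted p = 0.0525) nor mew (-0.44, adjusted p = 0.168) was called. List medians were -0.17, -0.09 and -0.27, and that of the adherens list was 0.07 under plain library totals. With the replicate block, the apical list held 2 genes lower and 1 higher. In SvbACT and in SvbREP none of these 30 genes was called by edgeR with TMM and genotype alone. Under plain library totals 1 adherens junction gene was called lower in SvbACT. With the replicate block Magi was called in both, at -0.56 in SvbACT (edgeR adjusted p = 0.0366) and -0.54 in SvbREP (edgeR adjusted p = 0.0425). DESeq2 called Magi in both too.

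**Figure D4:**
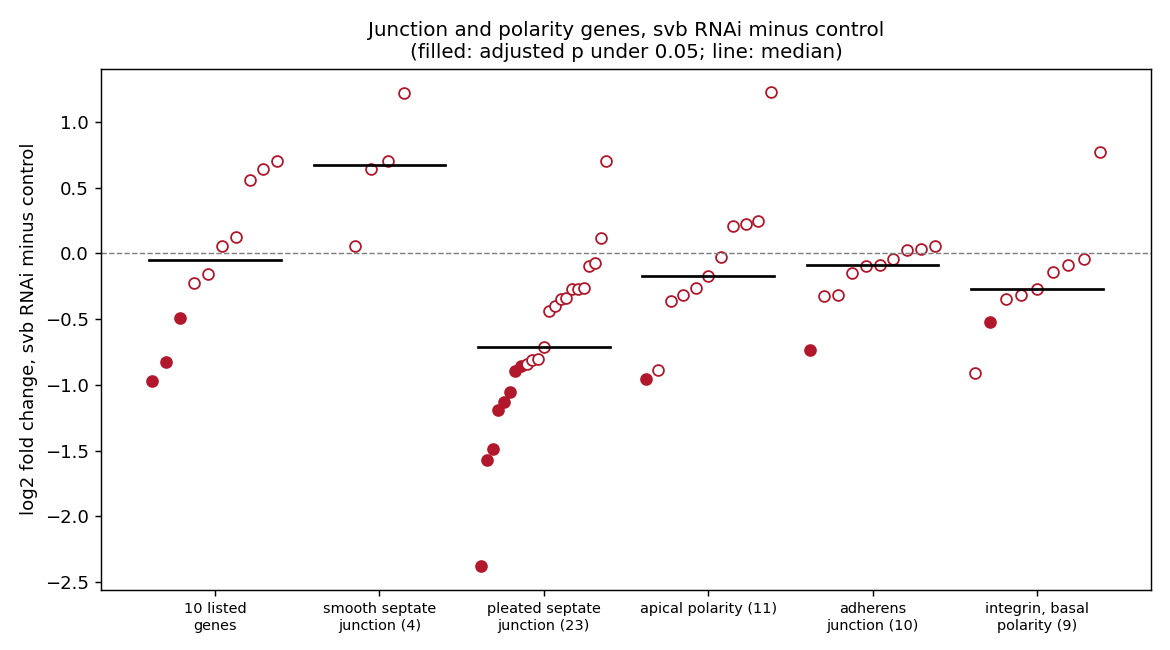
Log2 fold change of svb RNAi over control for the 10 genes and for the lists of smooth septate junction, pleated septate junction, apical polarity, adherens junction and integrin genes, with the number of genes tested in brackets. Filled points passed an adjusted p of 0.05 in edgeR and lines are medians. The 4 smooth junction genes lie above 0, mesh by little, with none called, and 21 of 23 pleated junction genes lie below 0 with 8 called.

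Marker genes of gut cell types also differed between the genotypes, and their part in the results above was not tested. Their counts are to be read beside the share of all genes called against control, in either direction. That share was 11.1% for svb RNAi, 1.57% for SvbACT and 1.21% for SvbREP. With the replicate block it was 19.6%, 3.85% and 3.56%, given in that order. Of 7 stem cell and enteroblast markers tested, esg (-0.88) and zfh2 (-1.22) fell and Dl (1.39) rose in svb RNAi against control. The markers summed to 4261 to 4737 CPM in svb RNAi, 5216 to 7355 in SvbACT, 5065 to 5965 in SvbREP, against 5976 to 6441 CPM for control. Of 10 enterocyte markers only mex1 fell (-1.002), and the sums of the list were 1231 to 2647 CPM in svb RNAi, 1357 to 1433 in SvbACT, 1183 to 1830 in SvbREP, against 1104 to 1713 CPM for control. Of 11 enteroendocrine markers 2 fell (5 with the replicate block) and 1 rose in svb RNAi, 7 fell in SvbACT and 7 fell in SvbREP. They summed to 514 to 1216 CPM in svb RNAi, 308 to 547 in SvbACT, 283 to 497 in SvbREP, against 967 to 3477 CPM for control. In svb RNAi 8 of the 11 log2 fold changes were negative and 3 positive (median -1.41), and Orcokinin averaged 79.0 CPM against 14.8 CPM for control. In SvbACT and in SvbREP all 11 were negative (medians -2.36 and -2.89). Of this list Syt4 had 0, 0 and 0 raw counts in svb RNAi, 0, 1 and 0 in SvbACT and 2, 0 and 0 in SvbREP, against 158, 171 and 90 for control. It was the only marker of the list without counts in svb RNAi. Of 12 visceral muscle markers 1 fell in svb RNAi (7 with the replicate block) and none in SvbACT or SvbREP (3 each with the block), with sums of 1219 to 1764 CPM in svb RNAi, 1612 to 1819 in SvbACT and 1587 to 1613 in SvbREP, against 2003 to 2847 CPM for control. The muscle log2 fold changes were negative for 12 of 12 genes in svb RNAi (median -1.72), 11 of 12 in SvbACT (median -2.19) and 12 of 12 in SvbREP (median -2.12), while Tm1, at 989 to 1554 CPM in the 12 libraries, made up most of each sum. Of 2 tracheal markers tested 1 fell in svb RNAi.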

How the data were processed

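Bulk RNA-seq counts of 12 libraries were used. Per the labels' protocols, the kits were MasterPure for RNA and Ovation SoLo for libraries, with single reads of 100 nt. The submitters' processing notes name FastQC 0.11.5, STAR 2.5.2b, HTSeq 0.6.0, edgeR and dm6 without saying what each did. The deposited counts are whole numbers per gene and library, with no normalization. The annotation, strand setting and gene filter are not given in the sources used here. The authors' deposited calls are a score of -1, 0 or 1 per gene. A second header line names 12 further columns with no values, which were not used.

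The filterByExpr function of edgeR 4.0.16 (R 4.3.3), set to a minimum count of 10, left 8296 genes. Libraries were scaled by TMM, and a quasi-likelihood model with the genotype alone was fitted to all 12 libraries, which share 1 estimate of the spread. All 6 pairs of genotypes were tested two-sided, with Benjamini-Hochberg adjustment over all genes tested, and a gene was called at an adjusted p under 0.05. SE and 95% intervals come from the F statistic. The biological coefficient of variation was 0.296. Alternatives were plain library totals, no filter, DESeq2 1.42.0, a replicate block, fits on 2 groups, and each library left out. The fit without the 4 libraries numbered 1 was added after the data were seen.

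Same-numbered libraries deviated together: by the numbers in the descriptions, 18 of 18 pairs correlated above 0.1 (mean 0.25), and by the numbers in the titles 9 of 18 did (mean 0.0152). The numberings differ only for the svb RNAi libraries. The description numbers were therefore taken as the replicate block, which the main fit leaves out. A library is a pool of animals, so p-values measure the spread between pools, which may be technical. A floor of 3 counts was 0.34 to 0.935 CPM, which covers counting error only. Of 8802 gene IDs, 8686 were matched to reference names.

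The 10 genes and the gene lists were chosen with earlier results of these data known. Named beside them were ovo, hoka, up to 3 called genes per list and contrast with control, and the 2 genes most like each smooth junction gene.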

Additional observations from a re-analysis of the deposited data

How the results depend on the processing

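In svb RNAi against control, pyd was called under every alternative and with each library left out. Genes called in that comparison (923) came to 1630 with the replicate block and 571 without the libraries numbered 1, where 1 of the 10 genes was called (Nrx-IV -0.72 and dlg1 -0.48 missed the threshold). Library totals left dlg1 at -0.34. Genes called in SvbACT against control (130) came to 319 with the block by description numbers, 70 by title numbers and 327 with DESeq2. In SvbREP against control (100) they came to 295, 44 and 275, and to 47 with those 2 groups alone. Between SvbACT and SvbREP (6) they came to 32, 10 and 41, and to 17 without the libraries numbered 1. Between svb RNAi and SvbACT (211) they came to 498 with the block, 443 with DESeq2, 131 with 2 groups alone and 131 without the libraries numbered 1. There 0 of the 10 genes were called under library totals (pyd -0.59), title numbers (-0.75), 2 groups alone (-0.75) or without the libraries numbered 1 (-0.59). Between svb RNAi and SvbREP (215) the genes called came to 470 with the block, 436 with DESeq2 and 109 with 2 groups alone. Of the 10 genes, 1 was called there under library totals and 1 with 2 groups alone, in both cases pyd, while Nrx-IV missed the threshold (-0.72 and -0.87). Nrx-IV was -0.92 and not called without the libraries numbered 1, where mesh was 1.89 and called. With the block Ssk was 1.16 and called. The block by description numbers changed no other call of the 10 genes.

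With each library left out in turn, genes called in svb RNAi against control ranged from 408 (without control replicate 1) to 1101, in SvbACT against control from 22 to 151, in SvbREP against control from 20 to 107, between SvbACT and SvbREP from 0 to 10, in svb RNAi against SvbACT from 70 to 239 and against SvbREP from 108 to 240. Of the 10 genes, 1 to 3 were called in svb RNAi against control, 0 to 1 in SvbACT against control, 0 to 1 in svb RNAi against SvbACT and 0 to 3 in svb RNAi against SvbREP (0 without SvbREP replicate 3). In svb RNAi against control Nrx-IV ranged from -1.02 to -0.70 and dlg1 from -0.52 to -0.48. In SvbACT against control dlg1 ranged from -0.55 to -0.23. Between svb RNAi and SvbACT, pyd ranged from -0.90 to -0.53. Between svb RNAi and SvbREP, pyd ranged from -1.04 to -0.84, Nrx-IV from -1.07 to -0.71 and mesh from -0.14 to 1.95. Among the 10 genes, 22 of 60 pairs of a gene and a comparison took the other sign in some alternative, in 63 of 1140 alternative values. One of these is mesh in svb RNAi against SvbREP, below 0 and not called without SvbREP replicate 2 or 3, and called higher without SvbREP replicate 1 or the libraries numbered 1. The cause of these shifts was not tested. Depth limits Tsp2A and Ssk most, at 20 and 30 counts in SvbREP replicate 3.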

Other observations

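A few genes outside the 10, picked after their values were seen, shared part of the library pattern of mesh. The septate junction gene bark, which encodes a protein of the tricellular corner, stood at 62.7, 44.5 and 39.3 CPM in svb RNAi, 32.6, 34.3 and 28.9 CPM in SvbACT libraries, 289, 24.7 and 15.3 CPM among SvbREP libraries, against 178, 27.5 and 49.4 CPM for control. It was highest in SvbREP replicate 1 and control replicate 1. Gli, the gene of the tricellular protein Gliotactin, had 110, 28.1 and 18.4 CPM in SvbREP, against 57.3, 20.1 and 33.0 CPM for control. The gene nub, which encodes the POU-domain factor Pdm1 of mature enterocytes, had 188, 41.2 and 24.0 CPM in SvbREP, against 126, 17.2 and 69.1 CPM for control. Like mesh, all 3 were highest in replicate 1 of SvbREP and of control. In SvbACT, Gli (21.1, 36.1 and 30.2 CPM) and nub (45.3, 65.4 and 70.6 CPM) were lowest in replicate 1. There mesh was lowest in replicate 3. In svb RNAi, Gli and nub were highest in replicate 2, as mesh was, while bark was highest in replicate 1.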
